A study of Bos indicus x Bos taurus with 45 samples.

Results

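Mature microRNAs (miRNAs) cut from hairpins at 3 imprinted loci are described here: miR-483 from an intron of IGF2, miR-335 and miR-335-3p from MEST, and miR-296-3p and miR-296-5p from the GNAS region. They were taken as every entry of the 4 count tables named miR-483, miR-335 or miR-296, whichever arm of the hairpin the name gives. The tables write them as bta-miR-483, bta-miR-335, bta-miR-335-3p, bta-miR-296-3p and bta-miR-296-5p, and the prefix for cattle is left out here. The rule found 5 miRNAs of 3 precursors among 603 names in all, and each of the 5 was listed in all 4 tables. The 5p and 3p arms of a precursor arise together from one transcript, so that the 5 are not independent of each other. miR-335 and miR-483 are listed without an arm suffix, and miR-335 was taken as the 5p arm that faces miR-335-3p.

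Small RNA libraries had been made from 4 tissues of bovine fetuses, Bos indicus x Bos taurus, at about day 105 of gestation. Controls were healthy fetuses conceived by artificial insemination. LOS stands for large offspring syndrome, an overgrowth of ruminant fetuses that the study sets beside Beckwith-Wiedemann syndrome, and LOS fetuses had been conceived by assisted reproduction (ART). Fetuses of the group labelled ART, which were read in liver alone, came from the same kind of conception and were healthy. Kidney held 4 control and 4 LOS libraries, liver 5 control, 4 LOS and 4 ART, skeletal muscle 4 control and 4 LOS, and tongue 9 control and 7 LOS, with the sex given for tongue only. Fetuses carry a number within their group, and the numbers recur in each tissue, so that LOS 4 of kidney and LOS 4 of liver were taken as 1 fetus. Tongue controls 1 to 5 and LOS 1 to 4 were female, and controls 6 to 9 and LOS 5 to 7 male. If the numbers mark the same fetuses, the control and LOS libraries of the other tissues were all female, while tongue means cover both sexes. The sex of the ART livers is not given. Dams, sires and the particular procedure of conception are not told apart in the sources used here.

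At an imprinted locus one parental allele is silent, so that a change in imprinting can raise or abolish expression without a change in sequence. IGF2 encodes a fetal growth factor expressed from the paternal allele, and its loss of imprinting is a recurrent lesion in overgrowth syndromes. MEST, also expressed from the paternal allele, encodes a hydrolase-like protein of growing mesodermal tissue. GNAS encodes the stimulatory G protein alpha subunit and has several promoters that differ in the parental allele they are read from. A miRNA inside such a locus is cut from its transcripts, and one arm of each hairpin is usually kept in far greater amount than the other.

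Counts are reads per mature miRNA, and levels are given as CPM, the standard rescaling of a count to a common library total, which here is the total of listed reads adjusted by TMM factors within a tissue's table. Tongue was read most deeply, with 9357833 to 13822348 listed reads a library, ahead of kidney (6132982 to 9170756), skeletal muscle (4744968 to 6456252) and liver (3379816 to 4976770). The 5 miRNAs had counts from 37 to 32303, so that counting error is largest for miR-296-5p, with 37 to 210 reads a library. The liver label matched its defining miRNA, miR-122, at 18076 CPM in liver and 8.42 CPM in kidney. The muscle miRNA miR-133a had 14639 CPM in skeletal muscle and 15697 CPM in tongue, against 34.9 CPM in kidney. For squamous epithelium, miR-205 had 3063 CPM in tongue and 27.2 CPM in skeletal muscle. Kidney was marked less clearly. Its miR-204 had 988 CPM, against 554 CPM in liver. However, miR-192 and miR-194 were lower in kidney (22261 and 552 CPM) than in liver (68978 and 2141 CPM). In these bulk tissues, fewer cells of a type and less RNA per cell cannot be told apart. Libraries of 2 tongue controls stood apart. Control 9 had 7034 CPM of miR-192, a miRNA of liver, kidney and gut epithelium, against 2328 CPM in the next tongue library, the lowest miR-335 and the highest miR-296-3p. Control 4 had the lowest miR-335-3p, miR-296-3p and miR-296-5p of the tongue. LOS and sex differences in tongue are therefore also given without these libraries.

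**Figure D1:**
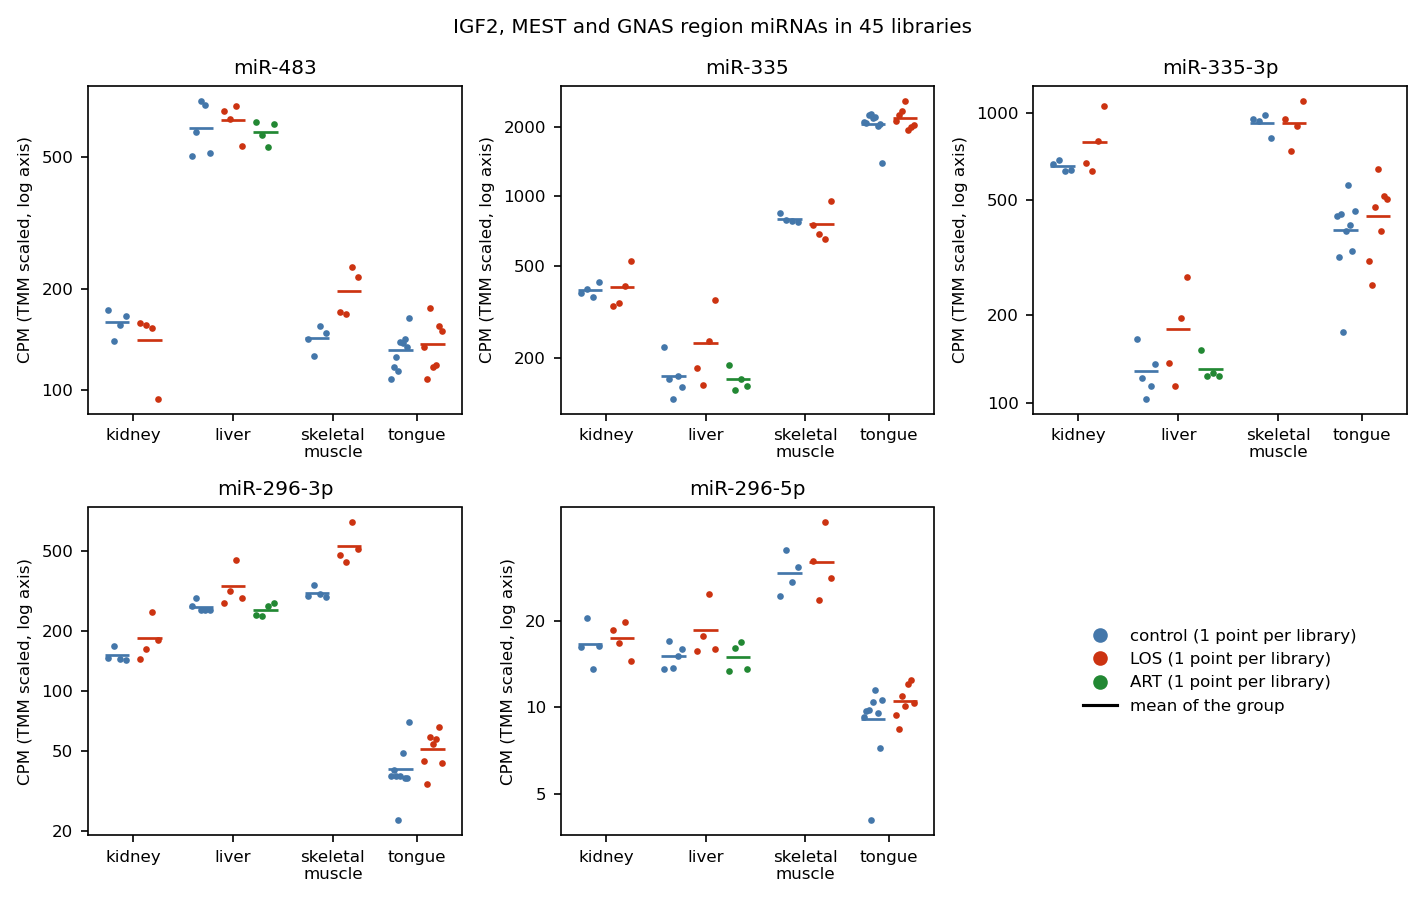
CPM of each of the 5 miRNAs on a log axis, 1 point per library, by tissue (x axis) and group (colour), with the mean of each group as a bar. miR-296-3p in skeletal muscle and miR-483 in skeletal muscle are the pairs of LOS and control groups whose points do not overlap, and tongue holds the highest miR-335 and the lowest miR-296-3p.

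The loci differed in where their miRNAs were abundant. In controls, miR-483 was most abundant in liver, miR-335 in tongue, and miR-335-3p and miR-296-3p in skeletal muscle. Control fetuses 1 to 4 were compared between tissues in 1 edgeR fit on the 374 miRNAs of all 4 tables, with the fetus as a block. Most miRNAs differ between tissues there: the share past an adjusted p under 0.05 was 86.6% for liver against kidney, 77.3% for skeletal muscle against kidney, 80.2% for tongue against kidney, 85.3% for skeletal muscle against liver, 85.3% for tongue against liver and 64.7% for tongue against skeletal muscle. A call between tissues is thus the common case. Tongue was deposited separately with another list of processing tools, and tissue and processing cannot be told apart in its contrasts.

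miR-483 stood at 612 ± 110 CPM (SD, n = 5) in control liver. It had 159 ± 14.4 CPM in kidney (n = 4), 143 ± 12.3 CPM in skeletal muscle (n = 4) and 131 ± 17.4 CPM in tongue (n = 9). Liver exceeded kidney by 1.20 ± 0.12 (SE) on the log2 scale (edgeR adjusted p 2.1e-07). Kidney and skeletal muscle, neighbours in this order, were not separated (-0.23 ± 0.11, edgeR adjusted p 0.0858), and tongue lay below skeletal muscle by a log2 difference of -0.66 ± 0.11 (0.00018) and below kidney by -0.89 ± 0.11 (6.4e-06). These differences come from the joint scaling of the 4 tables, whereas the CPM values are scaled within each table. Every scaling tried kept liver above kidney for miR-483, with a log2 difference between 1.05 and 1.99.

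miR-335 had the reverse order. Control tongue had 2065 ± 266 CPM (SD, n = 9) and skeletal muscle 800.4 ± 30.6 CPM (n = 4), against 392 ± 24.8 CPM in kidney (n = 4) and 167 ± 33.4 CPM in liver (n = 5). Each step of this order passed the test, with a log2 difference of 1.08 ± 0.10 for tongue over skeletal muscle, 0.96 ± 0.10 for skeletal muscle over kidney and -2.01 ± 0.11 for liver against kidney (edgeR adjusted p 1.3e-06 or lower). The other arm did not share the first place: miR-335-3p stood at 924 ± 71.7 CPM in skeletal muscle, 654.97 ± 25.3 CPM in kidney, 393 ± 109 CPM in tongue and 128 ± 24.4 CPM in liver. Skeletal muscle and kidney were not separated for miR-335-3p (0.42 ± 0.20, edgeR adjusted p 0.0683), although total-read scaling brought that difference to 0.51 with an adjusted p of 0.0395. Tongue lay below skeletal muscle for miR-335-3p by a log2 difference of -1.82 ± 0.20.

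Control skeletal muscle had 311 ± 20.9 CPM of miR-296-3p (SD, n = 4), liver 265 ± 16.3 CPM (n = 5), kidney 151 ± 12.2 CPM (n = 4) and tongue 41.0 ± 12.9 CPM (n = 9). Skeletal muscle exceeded kidney by 0.97 ± 0.13 and liver by 0.95 ± 0.13 on the log2 scale, and tongue lay below kidney by a log2 difference of -2.56 ± 0.13 (edgeR adjusted p 7.3e-06 or lower). The place of liver depended on the scaling. With TMM factors liver and kidney did not differ beyond their spread for miR-296-3p (0.03 ± 0.13, edgeR adjusted p 0.832), with RLE factors the sign turned (-0.11), and on total listed reads liver was higher by 0.83 (adjusted p 4.4e-05). Total-read scaling also ended the call of skeletal muscle over liver (0.23, adjusted p 0.114). That choice moves the median difference of all 374 miRNAs by 0.80 between liver and kidney. miR-10b held 29.2% of listed kidney reads and the most abundant liver miRNA, miR-411a, 8.79%, and their part in the shift was not tested. miR-296-5p, the minor arm, stood at 29.3 ± 4.61 CPM in skeletal muscle, 16.6 ± 2.84 CPM in kidney, 15.1 ± 1.48 CPM in liver and 9.12 ± 2.23 CPM in tongue. Tongue and liver were not separated for it (-0.47 ± 0.22, edgeR adjusted p 0.0588), and the drop from kidney to liver (-0.95 ± 0.22) was not called on total listed reads (-0.16, adjusted p 0.526).

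The central question of the study, whether miRNAs differ in LOS, was asked of each locus within each tissue. A call was an adjusted p under 0.05 over all miRNAs of the table in edgeR's quasi-likelihood test. None of the 5 miRNAs was called in any of the 6 group comparisons. The background was low as well. Liver had 1.24% of all listed miRNAs called between LOS and control, 2.66% between LOS and ART and 0.0% between ART and control, and the other tissues had 0.0% each. Where edgeR called 0, the number of listed miRNAs with an unadjusted p under 0.05 was 33 in kidney, 46 for ART against control liver, 58 for skeletal muscle and 25 for tongue, while DESeq2 called 3, 6, 17 and 0 and limma-voom 0 in each. Of the 5 miRNAs, an unadjusted p under 0.05 was reached by 3 for LOS against control liver (14.0% of all listed miRNAs), 2 for LOS against ART liver (15.5%), 2 for skeletal muscle (13.2%), 1 for tongue (5.43%), and 0 for kidney (7.57%) and ART against control liver (8.17%). Groups did not overlap for 2 of the 5 in skeletal muscle (8.88% of all) and 1 for LOS against ART liver (8.53%), and for 0 of the 5 in kidney (4.36%), LOS against control liver (4.44%), ART against control liver (2.84%) and tongue (0.0%). The median of the 5 log2 differences between LOS and control was 0.18 in tongue, 0.12 in skeletal muscle, 0.34 in liver and 0.07 in kidney, and in liver it was -0.04 for ART against control and 0.39 for LOS against ART, where the median of all listed miRNAs lay between -0.01 and 0.01 in each comparison.

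**Figure D2:**
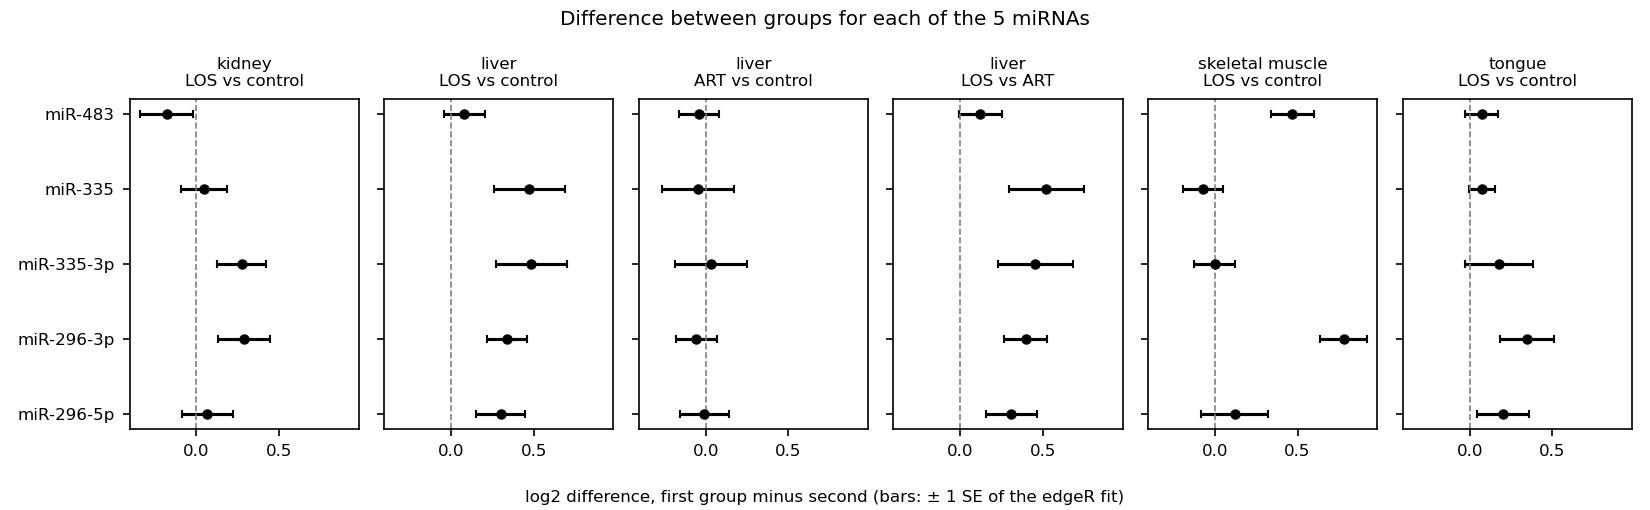
Log2 difference between groups (x axis, first group minus second) for each of the 5 miRNAs in the 6 comparisons, with bars of 1 SE of the edgeR fit. miR-296-3p lies above 0 in each of the 4 LOS against control panels and reaches 0.78 in skeletal muscle, whereas all 5 lie within 0.06 of 0 for ART against control.

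miR-483, the IGF2 miRNA, was higher in every LOS library of skeletal muscle than in every control. Controls 1 to 4 of skeletal muscle had 142, 126, 155 and 148 CPM, and LOS 1 to 4 had 171, 169, 234 and 218 CPM. The log2 difference was 0.47 ± 0.13 (SE), or 1.38-fold (1.16 to 1.66 at 2 SE either side), with an edgeR adjusted p of 0.230 and rank 7 of 439 by p. Of all listed skeletal muscle miRNAs, 3.64% had LOS above control without overlap, so that separation of the groups by itself was not rare. DESeq2 gave miR-483 an adjusted p of 0.0378, and without single libraries the edgeR value stayed between 0.146 and 0.347.

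In the other tissues miR-483 overlapped between the groups. Kidney LOS 1 to 4 had 158, 156, 153 and 93.9 CPM against 140.2 to 174 CPM in controls, so that LOS 4 alone lay below the control range (log2 difference -0.18 ± 0.16, and -0.03 without LOS 4). In liver, where miR-483 is most abundant, LOS ranged from 538 to 710.4 CPM, controls from 502 to 737 CPM and ART from 534 to 635 CPM. The log2 difference of LOS from control liver was 0.08 ± 0.12. Tongue had 107 to 164 CPM in controls, with a median of 134.3, and 108 to 175 CPM in LOS, with a median of 135 (0.07 ± 0.10; 0.06 without control 4 and 0.10 without control 9).

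The MEST arms were not called in any tissue, and in liver they spread widely between LOS fetuses. In LOS liver, miR-335 had 179.7, 153, 237 and 355 CPM in LOS 1 to 4, against 222, 162, 133, 166 and 149.9 CPM in controls 1 to 5 and 187, 145, 162 and 150.2 CPM in ART 1 to 4. LOS 3 and LOS 4 lay above every control, and LOS 1 and LOS 2 within the control range. The log2 difference from control was 0.47 ± 0.21 (SE), with an edgeR adjusted p of 0.352, and it was 0.16 without LOS 4. miR-335-3p repeated this pattern in liver, with 137, 114, 196 and 272 CPM in LOS 1 to 4 against 103 to 167 CPM in controls and 123 to 152 CPM in ART. Its log2 difference was 0.49 ± 0.22 (edgeR adjusted p 0.348), and 0.19 without LOS 4. The SD of log2 CPM over the 4 LOS livers was 0.53 for miR-335 and 0.56 for miR-335-3p, above that of 93.4% and 94.5% of the 563 listed miRNAs, whose median was 0.17. Among controls the same SDs were 0.27 and 0.26, at percentiles 77.6 and 74.6. In kidney the SD of miR-335 was 0.30 in LOS and 0.09 in controls, and that of miR-335-3p 0.33 and 0.06. Skeletal muscle had 0.24 and 0.05 for miR-335 and 0.24 and 0.12 for miR-335-3p, with LOS at percentiles 57.4 and 56.7. The median SD of all listed miRNAs was also larger in LOS there, at 0.21 against 0.16, and in kidney, at 0.20 against 0.13. Tongue differed, with 0.15 in LOS and 0.22 in controls for miR-335 and 0.46 and 0.48 for miR-335-3p. No test of spread was made.

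Kidney gave a like picture for the 3p arm. miR-335-3p had 664.9, 686, 631 and 638 CPM in controls 1 to 4 and 674, 633, 799 and 1060.2 CPM in LOS 1 to 4, so that LOS 3 and LOS 4 exceeded all controls (0.27 ± 0.15, edgeR adjusted p 0.705). Without LOS 4 the difference was 0.10. miR-335 ranged from 367 to 424 CPM in controls and from 336 to 525 CPM in LOS, with LOS 4 again highest (0.04 ± 0.14, and -0.11 without LOS 4). LOS 1 and LOS 2 lay below every control for miR-335 in kidney. In skeletal muscle the LOS range enclosed the control range, with 653 to 954 CPM against 778 to 845 CPM for miR-335 (-0.07 ± 0.12) and 737 to 1100.0 CPM against 820.1 to 983 CPM for miR-335-3p (-0.0019 ± 0.12). Means of the groups were thus close in skeletal muscle while LOS fetuses lay on both sides of the controls. For miR-335, 3 of the 4 LOS libraries lay below every control there and LOS 4 alone above. For miR-335-3p, 1 lay below and 1 above.

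Tongue had the highest miR-335 of the study in both groups. It ranged from 1398 to 2275 CPM in controls, with a median of 2107, and from 1933 to 2593 CPM in LOS, with a median of 2129. The log2 difference was 0.08 ± 0.08 (SE), 0.08 without control 4 and 0.03 without control 9, which held the lowest value. miR-335-3p in tongue ranged from 175 to 562 CPM in controls, with a median of 411.7, and from 254 to 642 CPM in LOS, with a median of 472. Its difference of 0.18 ± 0.20 was 0.08 without control 4, 0.19 without control 9 and 0.02 without LOS 4.

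miR-296-3p, of the GNAS region, had the largest LOS difference of the 5 miRNAs. In skeletal muscle, controls 1 to 4 had 301, 341, 306 and 295 CPM, and LOS 1 to 4 had 479, 443, 698 and 513 CPM. All 4 LOS libraries lay above all 4 controls, with a gap from 341 to 443 CPM, and the highest of them, LOS 3, was the library with the fewest listed reads of skeletal muscle (4744968). The log2 difference was 0.78 ± 0.14 (SE), or 1.72-fold (1.41 to 2.09 at 2 SE either side), and its edgeR adjusted p of 0.0526 missed the threshold at rank 2 of 439 by p. It crossed the threshold with RLE factors (adjusted p 0.0488), with a mean CPM of at least 10 (0.0377), without the 3 most abundant miRNAs (0.0454), in DESeq2 (5.9e-05) and without LOS 3 (0.0488). The other alternatives did not cross it. Among them were total-read scaling, limma-voom, a block for the replicate number (edgeR adjusted p 0.175) and each other library left out. Over all alternatives the difference lay between 0.62 and 0.86 and the adjusted p between 5.9e-05 and 0.219. No marker list separated LOS from control in skeletal muscle. The groups overlapped in all 10 lists, including the muscle list, whose summed level was 18385 to 21930.4 CPM in LOS and 19064 to 22131 CPM in controls. Overlapping groups can still differ in level. The endothelium list had a median of 10266 CPM in LOS and 9381 CPM in controls, and the neuronal list 1406 and 1649 CPM. The part of cell types in the miR-296-3p difference was not tested.

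In liver the mean of miR-296-3p was 334.9 ± 80.6 CPM (SD, n = 4) in LOS, 265 ± 16.3 CPM (n = 5) in controls and 255 ± 18.7 CPM (n = 4) in ART. LOS 1 to 4 had 275, 318, 452.8 and 294 CPM, controls 1 to 5 had 267, 293, 254, 256 and 256 CPM, and ART 1 to 4 had 241, 237, 267 and 274 CPM. Against control, 3 of 4 LOS livers lay above the whole control range (0.34 ± 0.12, edgeR adjusted p 0.239). Against ART, all 4 did (0.39 ± 0.13, edgeR adjusted p 0.146), although LOS 1 at 274.7 CPM nearly touched ART 4 at 274.5 CPM, and 3.2% of listed miRNAs had LOS above ART without overlap. Both comparisons share the LOS libraries, and without LOS 3 they were 0.16 and 0.21. ART and control livers differed by -0.06 ± 0.12. Beside the comparison of LOS with ART, 2 of 9 marker lists did not overlap. The hepatocyte list (miR-122, miR-122-3p and miR-885) summed to 15132 to 19457.9 CPM in LOS and 19458.4 to 20916 CPM in ART, so that the groups nearly touched, and the kidney tubule and gut list, in which miR-192 dominates, to 61360 to 71661 CPM against 72962 to 82808 CPM. Their part in the miR-296-3p difference was not tested.

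The groups overlapped for miR-296-3p in kidney and tongue. Kidney miR-296-3p was 147, 169, 145 and 143 CPM in controls 1 to 4 and 146, 162, 249 and 179 CPM in LOS 1 to 4, a log2 difference of 0.29 ± 0.16 (SE) with an edgeR adjusted p of 0.705. LOS 3 and LOS 4 exceeded every control there, and without LOS 3 the difference was 0.11. In tongue it ranged from 22.7 to 70.2 CPM in controls, with a median of 37.7, and from 34.5 to 66.1 CPM in LOS, with a median of 54.2. The tongue difference was 0.35 ± 0.16 (edgeR adjusted p 0.843), 0.28 without control 4 and 0.45 without control 9. The groups overlapped in tongue for every listed miRNA (0.0% separated).

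miR-296-5p, the minor arm, did not follow its partner in skeletal muscle. Controls 1 to 4 had 24.3, 35.1, 27.3 and 30.6 CPM there, and LOS 1 to 4 had 32.2, 23.6, 43.9 and 28.1 CPM. The groups overlapped, with LOS 2 below and LOS 3 above every control (0.12 ± 0.20). Elsewhere its log2 differences between LOS and control were 0.07 ± 0.15 in kidney, 0.30 ± 0.15 in liver and 0.20 ± 0.16 in tongue, and none passed. The tongue value was 0.12 without control 4 and 0.22 without control 9. In liver, LOS 3 with 24.8 CPM was the highest library, and the value without it was 0.13.

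Whether a LOS difference varied between tissues was tested directly in kidney, liver and skeletal muscle, with 24 libraries of control 1 to 4 and LOS 1 to 4, 389 miRNAs and the fetus as a block. miR-296-3p passed this interaction test in edgeR (F = 13.4, adjusted p 0.0363), in which 1.29% of miRNAs were called. Its LOS difference was larger in skeletal muscle than in liver by 0.44 ± 0.10 (adjusted p 0.0297) and larger than in kidney by 0.44 ± 0.10 (adjusted p 0.0553), while liver and kidney differed by 0.0027 ± 0.099. The other 4 miRNAs had edgeR adjusted p between 0.208 and 0.673 in this test. For the MEST arms the LOS difference was lower in skeletal muscle than in liver by a log2 value of -0.49 ± 0.17 for miR-335 and -0.48 ± 0.17 for miR-335-3p (edgeR adjusted p 0.120 and 0.118). For miR-483 the LOS difference was larger in skeletal muscle than in kidney by 0.61 ± 0.21 (edgeR adjusted p 0.182). The miR-296-3p call was lost without the block (0.423), with tongue added (0.281) and without control 1 (0.0756), control 2 (0.189), control 3 (0.109), control 4 (0.115), LOS 1 (0.141), LOS 3 (0.0887) or LOS 4 (0.0736). Of the fetuses left out singly, LOS 2 was the only one without which the call held (0.0175). With RLE factors and in limma-voom it held as well.

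The same LOS fetuses held the extremes in tissue after tissue. Among LOS 1 to 4, fetus LOS 4 had the highest miR-335 and the highest miR-335-3p in 4 of 4 tissues, and LOS 2 the lowest miR-335-3p in 4 of 4. LOS 3 had the highest miR-296-3p and the highest miR-296-5p in 4 of 4 tissues among these fetuses, and the highest miR-483 in 3 of 4. In the tongue, LOS 6, which was not read in the other tissues, was higher still for both miR-296 arms. Of the 374 miRNAs listed everywhere, 6.42% had the same LOS fetus highest in all 4 tissues and 11% the same LOS fetus lowest. With both at once, as for miR-335-3p, the share was 1.6%. Relative to the mean of the controls of the tissue, LOS 4 liver stood at 1.11 for miR-335 and 1.10 for miR-335-3p on the log2 scale, whereas LOS 3 skeletal muscle stood at 1.17 for miR-296-3p but -0.29 for miR-335. In liver, LOS 3 stood at 0.53 for miR-335 and 0.63 for miR-335-3p, above every control, while its miR-483, at 0.23, lay within the control range.

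Among controls, control 2 had the highest miR-296-3p of controls 1 to 4 in 4 of 4 tissues, at 341 CPM in skeletal muscle, 293 in liver, 169 in kidney and 40.4 in tongue. The share of miRNAs with the same control highest in all 4 tissues was 3.48%, and that with the same control lowest 2.41%. No other of the 5 miRNAs had 1 control highest or lowest throughout.

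**Figure D3:**
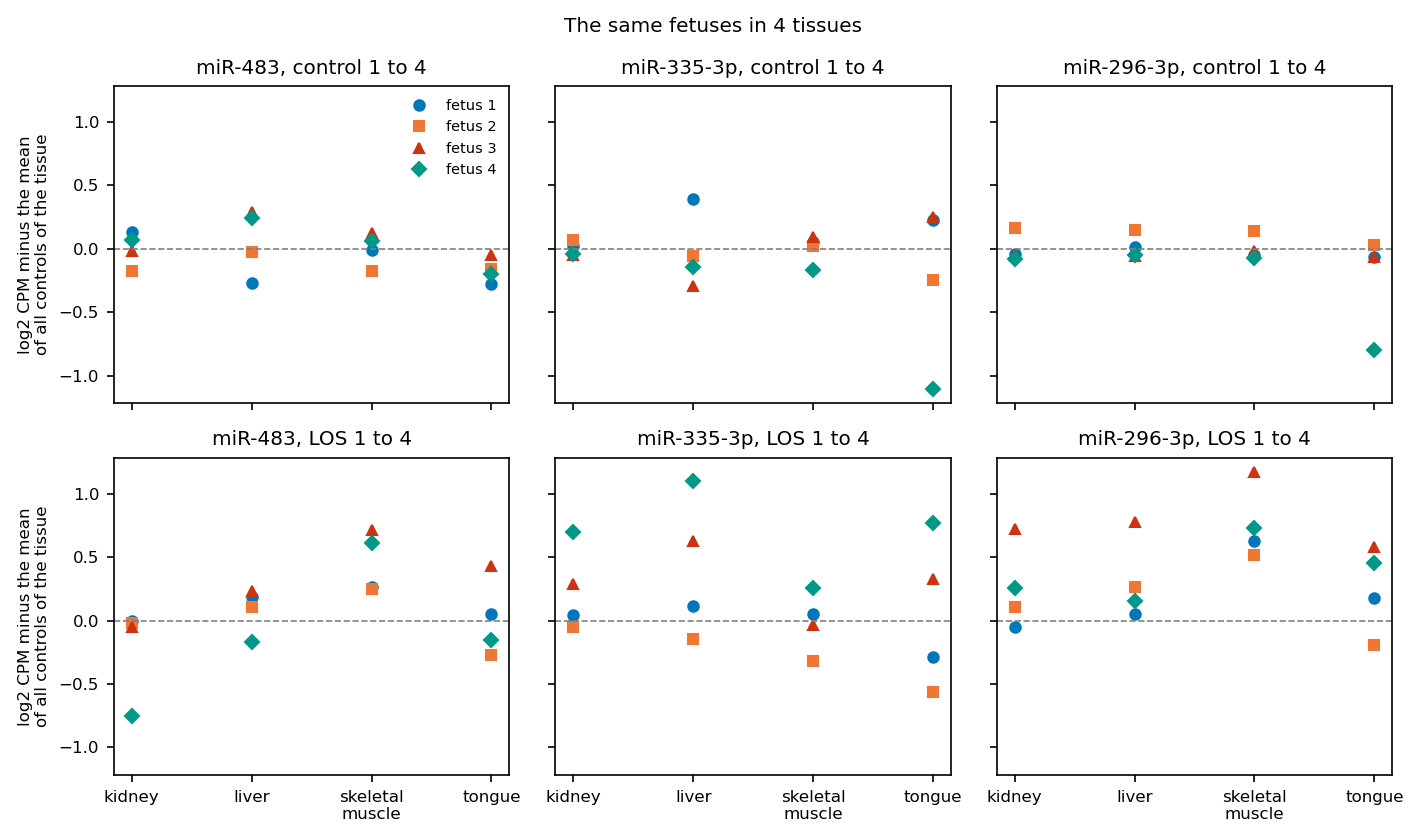
Log2 CPM of 3 miRNAs minus the mean of all controls of the tissue (y axis) in each tissue (x axis) for control fetuses 1 to 4 (top) and LOS fetuses 1 to 4 (bottom), 1 symbol per fetus. LOS 4 is the highest of the 4 LOS fetuses for miR-335-3p and LOS 3 for miR-296-3p in each tissue, while tongue control 4 is low for both.

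The balance of the arms of a precursor is read within a library and does not depend on scaling between libraries. For the MEST precursor the log2 ratio of miR-335 to miR-335-3p was 2.44 ± 0.58 in control tongue (SD, n = 9), 0.37 ± 0.14 in liver (n = 5), -0.20 ± 0.10 in skeletal muscle (n = 4) and -0.74 ± 0.10 in kidney (n = 4). The 3p arm was thus the more abundant in kidney and skeletal muscle, and the 5p arm in liver and tongue. Over controls 1 to 4 the means of the 4 tissues spanned 3.50, rank 2 of the 71 precursors with both arms in every table, whose median span was 1.09. Without tongue the span was 1.17 at rank 14, so that the high rank rests on the separately deposited tissue. Without control fetus 4 the span over 4 tissues was 3.23 for this precursor. Tongue exceeded kidney by 3.50 for this precursor, the largest absolute difference of the 71, where the median absolute difference was 0.66.

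The GNAS region precursor gave more 3p than 5p reads in every library. Its log2 ratio of miR-296-5p to miR-296-3p was lowest in control liver at -4.14 ± 0.12 (SD, n = 5), ahead of -3.42 ± 0.17 in skeletal muscle (n = 4), -3.19 ± 0.16 in kidney (n = 4) and -2.17 ± 0.29 in tongue (n = 9). The span over tissues was 2.05, at rank 5 of 71, and 0.98 at rank 21 without tongue.

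**Figure D4:**
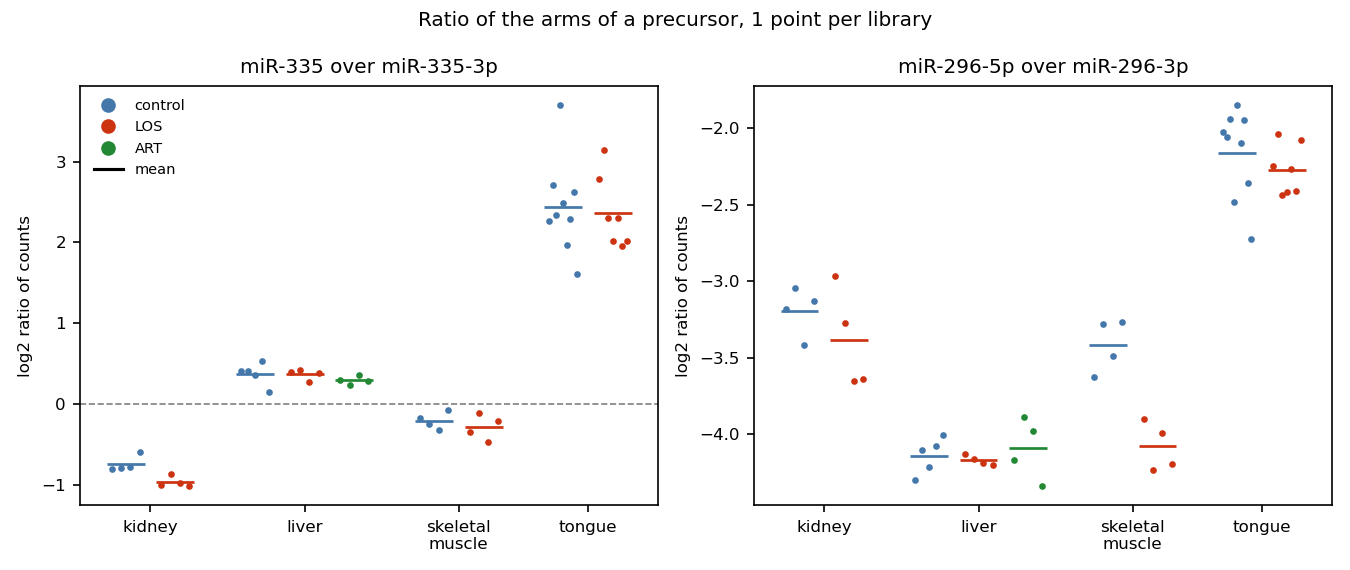
Log2 ratio of the 5p to the 3p count of each precursor (y axis), 1 point per library, by tissue and group, with group means as bars. Tongue lies above the other tissues for both precursors, and LOS lies below control without overlap for miR-335 in kidney and for miR-296 in skeletal muscle.

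In LOS the miR-296 ratio fell in skeletal muscle. Controls 1 to 4 had log2 ratios of -3.63, -3.28, -3.49 and -3.27, and LOS 1 to 4 had -3.90, -4.23, -3.99 and -4.19. The groups did not overlap, and their means differed by -0.66 ± 0.13 (SE). In a limma fit over the 88 precursors with both arms in the skeletal muscle table, this had an adjusted p of 0.0227 and rank 1 by p, with 2.27% of precursors called and 12.5% not overlapping between groups. The call was lost without control 2 (0.0773), control 3 (0.0854), LOS 3 (0.0640) or LOS 4 (0.0897), with differences from -0.73 to -0.61. An exact two-sided permutation test gave p = 0.0286, the smallest that 4 against 4 allows, and 0.171 adjusted over the 12 comparisons of both precursors. That comparison was added once the counts had been seen. The arms themselves had log2 differences of 0.78 for miR-296-3p, the major arm, and 0.12 for miR-296-5p.

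For miR-335 the ratio was lower in LOS kidney. It was -0.81, -0.79, -0.78 and -0.59 in controls 1 to 4 and -1.004, -0.87, -0.97 and -1.01 in LOS 1 to 4. The groups did not overlap (difference -0.22, exact permutation p 0.0286, 0.171 adjusted over 6 comparisons), and the limma adjusted p was 0.355. Of the 87 kidney precursors, 6.9% did not overlap. In liver, skeletal muscle and tongue the miR-335 ratio differed between LOS and control by -0.0061, -0.07 and -0.08, with exact permutation p between 0.429 and 0.905. The tongue difference was 0.08 without control 4 and -0.19 without control 9. LOS 2 and LOS 4 livers, the lowest and the highest LOS libraries with 153 and 355 CPM of miR-335, had log2 ratios of 0.42 and 0.39.

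**Figure D5:**
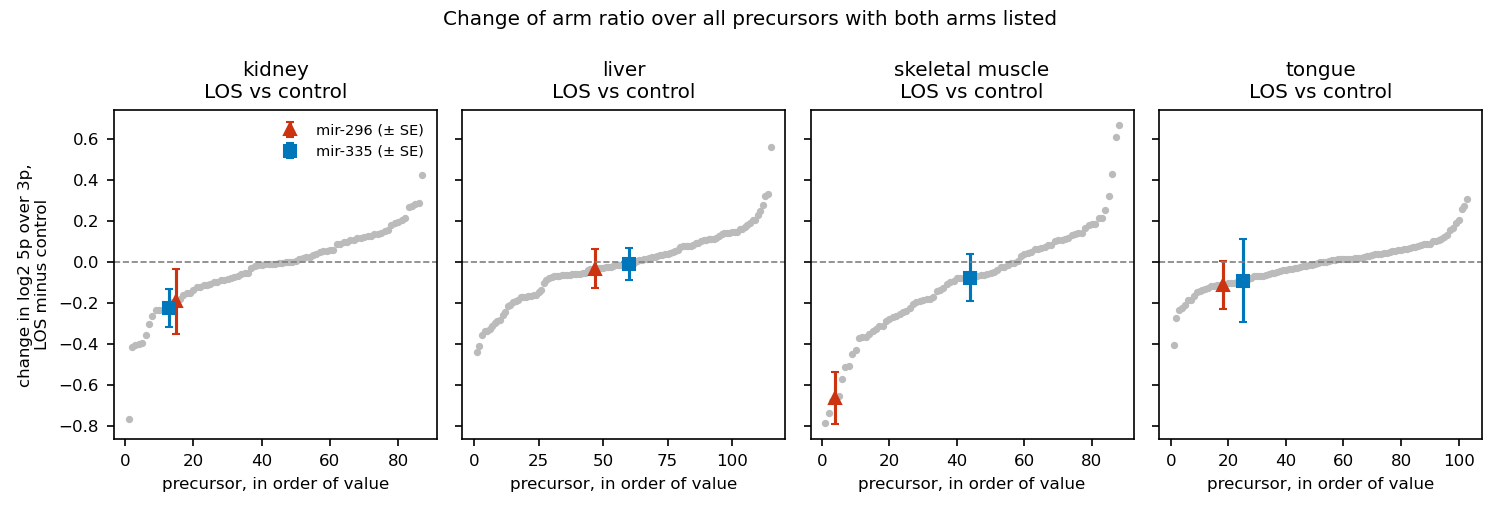
Difference in log2 5p to 3p ratio between LOS and control (y axis) for every precursor with both arms listed, in order of value (x axis), with mir-296 and mir-335 marked with bars of 1 SE. In skeletal muscle mir-296 lies at -0.66, the fourth lowest of 88 precursors, and the value next farthest from 0 among both precursors and all 4 tissues is -0.22, for mir-335 in kidney.

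Sex, given for tongue, went with no call among the 5 miRNAs. miR-335 was 2182 ± 88.3 CPM (SD, n = 5) in female and 1919 ± 357 CPM (n = 4) in male controls, and 2325 ± 197 CPM (n = 4) in female and 1993 ± 56.1 CPM (n = 3) in male LOS. The log2 difference of female from male, with a term for LOS, was 0.20 ± 0.08 for miR-335 (edgeR adjusted p 0.313) and -0.35 ± 0.16 for miR-296-3p (adjusted p 0.355). Without control 9, a male, they were 0.14 and -0.22, and without control 4, a female, 0.19 and -0.28. The sex differences of the other 3 were -0.18 for miR-483, -0.25 for miR-335-3p and -0.20 for miR-296-5p. In the same order they were -0.17, -0.16 and -0.11 without control 4, and -0.14, -0.24 and -0.185 without control 9. The share of miRNAs called was 0.0% for sex and 0.0% for the interaction of sex and LOS, in which all 5 had an adjusted p of 0.979 in edgeR.

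The miRNAs whose levels moved most like each of the 5 were sought over 45 libraries, after centring each on its tissue and group, among 374 miRNAs. Libraries share depth and fetuses, and the Pearson correlations are a description. miR-296-3p was most like its own partner miR-296-5p (r = 0.75), then miR-6529a (0.72) and miR-423-3p (0.70). miR-296-5p was next most like miR-191 (0.67) and miR-423-3p (0.65). miR-483 was most like let-7d-3p (0.62), miR-98-3p (0.58) and miR-877 (0.52).

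The MEST arms had r = 0.46 over all libraries, against 0.75 for the miR-296 arms. The order of the loci varied with the tissue. Within tissues the miR-296 arms had r = 0.41 in kidney, 0.79 in tongue, 0.86 in skeletal muscle and 0.79 in liver. For the MEST arms the value was -0.09 for tongue, 0.73 for skeletal muscle, 0.96 for liver and 0.93 for kidney. Without tongue controls 4 and 9 the tongue value was 0.32 over 14 libraries. The closest to miR-335 were miR-temp1-5p, an entry with a temporary name (0.69), miR-199c (0.60) and miR-199a-5p (0.58), the last a mesenchymal miRNA. Within liver these values were 0.92, 0.69 and 0.79, and within kidney 0.90, 0.67 and 0.23. Skeletal muscle had -0.15, -0.35 and 0.09, and tongue 0.28, 0.69 and 0.24. miR-335-3p was closest to miR-361 (0.72), miR-186 (0.71) and miR-671-3p (0.71) over all libraries. Within tongue these values were 0.94, 0.93 and 0.90, and within kidney -0.32, 0.13 and 0.22. Between loci, miR-483 had r = -0.45 with miR-335 and -0.01 with miR-335-3p. Within tissues these values were -0.83 and -0.88 in kidney, -0.50 and -0.57 in liver, 0.12 and 0.40 in skeletal muscle, and -0.44 and 0.44 in tongue. The highest value between loci was 0.55, for miR-335-3p and miR-296-3p. This pair reached 0.73 within tongue, where control 4 had the lowest level of both. Skeletal muscle gave it 0.26, kidney 0.39 and liver 0.13. The value of the pair without tongue control 4 was not tested.

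Other imprinted miRNAs were read from fixed lists. Of miR-675 of H19, miR-298 beside miR-296, miR-489, miR-653 and miR-184, only miR-184 was listed, in kidney alone, with a mean of 8.94 CPM and a log2 difference of 0.16 ± 0.31 (SE). The large DLK1-DIO3 miRNA domain had 84 listed members in liver, 81 in tongue, 81 in skeletal muscle and 72 in kidney. In edgeR 0 of them were called in either direction in any comparison. Of all listed miRNAs, 0.0% were called in kidney, skeletal muscle, tongue and ART against control liver, so that these comparisons tell nothing particular of the domain. In liver the share of all listed was 1.24% between LOS and control and 2.66% between LOS and ART. Their median log2 difference between LOS and control was -0.01 in tongue, -0.03 in skeletal muscle, 0.01 in liver and 0.01 in kidney, where all listed miRNAs had medians between -0.01 and 0.01.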

How the data were processed

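Small RNA libraries of kidney, liver, skeletal muscle and tongue came as 4 tables of raw read counts per mature miRNA, whole numbers as deposited by the authors. Bowtie and the build UMD3.1 are named for all 45 libraries and cutadapt 1.18 for the 16 of tongue, per the submitters' processing notes. The sources used here do not name the read counter, the miRNA annotation or a filter. No listed miRNA had a count of 0 in any library, and library totals are totals of listed reads. The arms were matched by name, no miRNA sequences or positions were used, and miR-335-3p carries no database identifier in the tables.

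Counts were analysed in R 4.3.3 with edgeR 4.0.16 (TMM factors 0.943 to 1.07, filterByExpr, which removed none of the 5, quasi-likelihood test, Benjamini-Hochberg over all miRNAs of the table, calls at an adjusted p under 0.05). Standard errors are the log2 difference over the root of edgeR's F. The 3 liver groups shared 1 fit, and tongue had a term for sex. Arm ratios were log2 values tested by exact permutation and with limma 3.58.1. Joint fits between tissues used the fetus as a block, since titles reuse fetus numbers: deviations of the same fetus from the group means correlated between kidney and liver at -0.017 to 0.42 over 8 fetuses, with 6 above 0.1, and between kidney and skeletal muscle at 0.019 to 0.54, with 5 above 0.1. Support was weakest between liver and tongue, at -0.365 to 0.291 with 4 of 9 above 0.1. Scripts were tested on simulated data. No library was a duplicate of another of its tissue and group (lowest chi-square per degree of freedom 23.9 over 103 pairs). Pairs across groups or tissues were not checked in this way. The named miRNAs were the 5 members, the 3 most like each of them, and 2 lists of other imprinted miRNAs. Seed families were planned but not formed, for want of sequences. Members, lists and marker lists were chosen with earlier results of these data known. The arm ratios over all precursors, the miR-296 ratio, the fetus extremes and the values without tongue controls 4 and 9 for arm likeness, levels and arm span were added after seeing the data. Replicates were separate fetuses by their labels, and nothing names their dams. Alternatives covered scaling, filters, DESeq2 1.42.0, limma-voom, blocks, sexes and single libraries left out.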

Additional observations from a re-analysis of the deposited data

Results flagged for a closer look

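Of 63 groups of libraries tested for an extreme value, 5 had 1 library set apart from the rest by Dixon's test, where chance gives about 1 in 20. They were miR-483 in LOS 4 kidney, the lowest of its group at 93.9 CPM, miR-296-3p in control 2 kidney, the highest at 169 CPM, miR-335-3p in ART 1 liver, the highest at 152 CPM, miR-335 in control 9 tongue, the lowest at 1398 CPM, and the log2 miR-335 ratio of control 4 kidney, the highest at -0.59. The LOS difference of miR-296-3p varied between kidney, liver and skeletal muscle by the interaction test of edgeR (adjusted p 0.0363), with the losses of that call given above.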

How the results depend on the processing

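Counts of called miRNAs moved with the tool. DESeq2 called 3 in kidney, 20 for LOS against control liver, 6 for ART against control, 27 for LOS against ART and 17 in skeletal muscle, where edgeR called 0, 7, 0, 15 and 0. In skeletal muscle edgeR called 3 each with RLE factors, with a mean CPM of at least 10 and without the 3 most abundant miRNAs. Fits on the 2 groups of a liver comparison called 1 for ART against control and 6 for LOS against ART. Replicate numbers did not pair the groups, with correlations of same-numbered libraries from -0.37 to 0.272, and the replicate block called 0 for LOS against control liver, 1 for ART against control and 3 for LOS against ART. No call among the 5 miRNAs changed with the replicate block within a tissue. It gave miR-296-3p in skeletal muscle 0.76 (edgeR adjusted p 0.175) and miR-296-5p in ART against control liver 0.015, a turned sign.

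For miR-296-3p in skeletal muscle the log2 difference was 0.79 with RLE factors, 0.78 with a mean CPM of at least 10, 0.79 in DESeq2, 0.79 without the 3 most abundant miRNAs and 0.62 to 0.86 with single libraries left out. For miR-483 there DESeq2 gave 0.48, past the threshold. Differences near 0 turned sign: miR-335-3p in skeletal muscle was 0.010 with RLE factors, 0.0016 with a mean CPM of at least 10, 0.010 in DESeq2 and 0.0065 without the 3 most abundant miRNAs, and miR-483 in male tongues was -0.043. The interaction F of miR-296-3p was 2.72 with no replicate block and 3.50 with tongue added, where 3 miRNAs were called.

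Between control tissues, miR-296-3p in liver against kidney was -0.11 with RLE factors and 0.83 on total reads, and miR-296-5p there was -0.16 on total reads. On total reads miR-335-3p in skeletal muscle against kidney was 0.51, miR-296-3p in skeletal muscle against liver 0.23 and miR-296-5p in tongue against liver -0.83, which limma-voom put at -0.54.

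With each library or fetus left out in turn, calls ranged from 0 to 2 in kidney (2 without LOS 2), 6 to 12 for LOS against control liver (12 without LOS 2), 0 to 5 for ART against control (5 without control 5, 1 without ART 4), 5 to 20 for LOS against ART (5, 9, 8 and 7 without LOS 1, LOS 3, ART 1 and ART 2), 0 to 1 in skeletal muscle (1 without LOS 3) and 0 to 26 for the interaction (26 without LOS 2), whose F for miR-296-3p ran from 8.66 to 15.96. Signs turned in kidney for miR-335 (-0.11 to 0.12) and miR-296-5p (-0.021 to 0.16), in LOS against control liver for miR-483 (-0.0032 to 0.16), in skeletal muscle for miR-335-3p (-0.088 to 0.092) and miR-296-5p (-0.070 to 0.24), and in tongue for miR-483 (-0.012 to 0.12). In ART against control liver they turned for miR-483 (-0.12 to 0.036), miR-335 (-0.13 to 0.067), miR-335-3p (-0.054 to 0.13) and miR-296-5p (-0.072 to 0.038). The miR-335-3p difference of control skeletal muscle from kidney ran from 0.36 to 0.48, called without control 4. The log2 arm ratio of miR-335 ran from -0.063 to 0.035 for LOS against control liver, and in tongue from -0.19 to 0.047 in limma and from -0.21 to 0.075 as a mean difference. That of miR-296 ran from -0.069 to 0.0044 for LOS against control liver, -0.022 to 0.13 for ART against control and -0.73 to -0.61 in skeletal muscle.

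Of values with 1 library or fetus left out, 906 were unchanged, 37 turned sign, 11 lost a call, 2 gained 1 and 16 counts of calls moved. Under other alternatives 505 were unchanged, 7 turned sign, 4 lost a call, 9 gained 1 and 14 counts moved. The unchanged values include the fits with no filter. Those fits repeat the main fits within a tissue, from which the filter had removed no listed miRNA, and could not differ. Unchanged meant the same direction and side of the threshold, or for a count of calls a similar number. The cause of each change was not tested. Counting error is largest for miR-296-5p, with 37 to 210 reads a library, and its part in the spread was not tested.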
